A study of Mus musculus with 2 samples.

Results

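Patrolling monocytes with *Ace*, *Treml4* and *Cd300e* were 478 of 2985 kept cells, recovered from the CNS of transplanted mice. The transplant consisted of haematopoietic stem and progenitor cells, from which all blood lineages arise. Members were chosen by their UMI counts (unique molecular identifiers, 1 per captured RNA molecule), as barcodes with at least 500 genes, under 10% mitochondrial UMIs and no namesake in the other library's barcode list. Each had at least 3 UMIs of *Ace*, *Treml4* and *Cd300e* together and no fewer than its UMIs of *Ly6c2* and *Ccr2*, genes of classical monocytes. Barcodes with 2000 CPM or more of the C1q genes, 3000 CPM or more of the class II genes *H2-Aa*, *H2-Ab1* and *H2-Eb1*, 20000 CPM or more of *S100a8* and *S100a9*, or 5 or more UMIs of *Gzma* and *Nkg7* were left out. CPM are UMI counts scaled to a common library total. The rule read the counts of these cells, so every level below is a description and none carries a test. The 3 marker genes lie at chr11:105967945-105989964 (*Ace*, plus strand), chr17:48264295-48275360 (*Treml4*, plus strand) and chr11:115051917-115062177 (*Cd300e*, minus strand) in GRCm38.

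The series held 1 library labelled Cx3cr1-/+ (heterozygous, replicate 1), with 156 members among 1234 kept cells, and 1 labelled Cx3cr1+/+ (wild type, replicate 1), with 322 among 1751. In both, CD45.1 recipients first received busulfan, an alkylating agent that depletes their own stem cells, as 4 doses of 25 mg/kg, and the labelled cell type was microglia-like. The protocol, the same text for both, describes sorted GFP-positive and GFP-negative donor cells without lineage markers from Cx3cr1-/+ mice, so the donors behind the Cx3cr1+/+ label remain unstated. The labels used here give no age, sex, time after transplantation or number of animals, and with 1 library a genotype every difference compares 2 libraries.

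Monocytes of the mouse leave the bone marrow as classical, Ly6C-high cells, and some convert to patrolling, Ly6C-low cells that crawl along the inner wall of small vessels and clear debris from it. The nuclear receptor Nr4a1 is needed for that conversion, the integrin LFA-1 (its alpha chain encoded by *Itgal*) holds the crawling cell to the endothelium, and the fractalkine receptor Cx3cr1 favours its survival. *Ace* encodes angiotensin-converting enzyme, *Treml4* and *Cd300e* encode immunoglobulin-family receptors of myeloid cells, and *Ear2* a secreted ribonuclease.

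Promoters are shown for 3 genes high in these cells and for the gene named in the genotype. *Fcgr4* encodes an IgG receptor, *Adgre4* an adhesion G protein-coupled receptor, *Ear2* the ribonuclease above and *Cx3cr1* the fractalkine receptor. The windows run from 250 bases before to 50 after the annotated start (RefSeq, GRCm38.p6) and lie at chr1:171018676-171018975 (plus strand), chr17:55749734-55750033 (plus strand), chr14:44102404-44102703 (plus strand) and chr9:120068247-120068546 (minus strand). Each is written 5′ to 3′ on the strand of its gene, and capitals mark, on either strand, CACCC (a core bound by Klf factors), GAGGAAG (a core bound by PU.1) and TTGCNNAA (a consensus bound by C/EBP factors).
Fcgr4: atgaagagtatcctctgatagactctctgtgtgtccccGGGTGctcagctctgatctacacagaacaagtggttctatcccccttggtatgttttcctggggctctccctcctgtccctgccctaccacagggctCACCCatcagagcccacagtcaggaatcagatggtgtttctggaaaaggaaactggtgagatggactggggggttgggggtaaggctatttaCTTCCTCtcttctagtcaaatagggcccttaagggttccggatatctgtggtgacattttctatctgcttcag
Adgre4: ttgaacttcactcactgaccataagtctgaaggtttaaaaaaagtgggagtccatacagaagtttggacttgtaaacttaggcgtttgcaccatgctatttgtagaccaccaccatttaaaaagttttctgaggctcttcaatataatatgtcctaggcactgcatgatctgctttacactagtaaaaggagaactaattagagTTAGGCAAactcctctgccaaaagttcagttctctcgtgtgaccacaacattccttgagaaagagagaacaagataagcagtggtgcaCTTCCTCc
Ear2: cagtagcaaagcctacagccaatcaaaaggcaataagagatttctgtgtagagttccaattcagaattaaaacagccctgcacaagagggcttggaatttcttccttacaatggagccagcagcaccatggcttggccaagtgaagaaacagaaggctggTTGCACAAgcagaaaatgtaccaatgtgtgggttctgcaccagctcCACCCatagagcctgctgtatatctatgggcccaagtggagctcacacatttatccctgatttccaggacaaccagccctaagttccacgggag
Cx3cr1: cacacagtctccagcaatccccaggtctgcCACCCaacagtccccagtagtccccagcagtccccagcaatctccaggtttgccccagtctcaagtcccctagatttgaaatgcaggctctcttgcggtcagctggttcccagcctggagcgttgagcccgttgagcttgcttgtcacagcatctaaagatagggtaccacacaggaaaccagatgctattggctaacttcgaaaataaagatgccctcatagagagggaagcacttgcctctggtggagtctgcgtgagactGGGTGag
The *Fcgr4* window held 2 CACCC matches and 1 GAGGAAG match, and that of *Adgre4* 1 GAGGAAG and 1 TTGCNNAA match. The *Ear2* window held 1 CACCC and 1 TTGCNNAA match, and that of *Cx3cr1* 2 CACCC matches, and none of these matches overlapped another. Among all 32851 promoter windows of the table, 57.5% held CACCC, 13.6% GAGGAAG, 10.8% TTGCNNAA and 1.51% AAAGGTCA, the site that Nr4a factors bind as monomers. Ratios over classical monocytes were ranked among genes outside the rule with at least 50 CPM in either class. Of the 11 windows available for the 15 highest of these genes, 7 held CACCC, 4 GAGGAAG, 1 TTGCNNAA and 0 AAAGGTCA. Of 11 windows for the 15 lowest genes of the same ranking, the counts were 7, 6, 2 and 0.

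The members held 1263977 UMIs in the heterozygous library and 2311885 in the wild-type library. A member had a median of 6529.5 UMIs and 2196.5 genes in the heterozygous library and 5645 UMIs and 2020 genes in the wild-type library, and the median mitochondrial share was 2.01% and 2.12%. Of the 1837 and 2359 listed barcodes, 339 appeared in both lists, or 18.5% of the heterozygous list and 14.4% of the wild-type list, and these were left out. *Xist* RNA was found in 134 of 156 heterozygous and 11 of 322 wild-type members, and RNA of Y-linked genes in 0 of 156 (which by the count floor of 3 allows a share with such a UMI of up to 1.92%, with an exact upper bound of 2.34%) and 208 of 322, with both marks in 0 and 6 members. The libraries thus also differed in sex marks, and genotype, sex and library cannot be told apart. Intervals are 95% and cover counting error only.

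Patrolling monocytes made up less of the heterozygous library, with 156 of 1234 kept cells (12.6%, Clopper-Pearson 10.8 to 14.6), against 322 of 1751 (18.4%, 16.6 to 20.3) in the wild-type library. Classical monocytes, taken by the mirrored rule (at least 3 UMIs of *Ly6c2* and *Ccr2*, more than of the patrolling markers, same exclusions), were 81 cells (6.56%, 5.25 to 8.09) and 135 cells (7.71%, 6.50 to 9.06). Of both kinds together, patrolling cells were 65.8% (59.4 to 71.8) of 237 heterozygous monocytes and 70.5% (66.0 to 74.6) of 457 wild-type monocytes, intervals that overlap. The sort, which the labels do not describe for the recovered cells, can set shares of kept cells. Among kept cells, 257 heterozygous and 568 wild-type barcodes had enough marker UMIs. Of these the C1q limit removed 76 and 160, the S100a8 and S100a9 limit 57 and 135, the class II limit 14 and 38 and the *Gzma* and *Nkg7* limit 2 and 2, while 11 and 11 had more classical UMIs (a barcode can fail several limits). Members with exactly 3 marker UMIs numbered 4 in the heterozygous and 36 in the wild-type library, and barcodes just outside, with 2, numbered 10 and 31. In the wild-type library *Itgal* stood at 939 CPM in the 36 members with 3 marker UMIs and at 1007 CPM in the 31 barcodes with 2, intervals that overlap (780.2 to 1120.0 and 814 to 1232). In the heterozygous library it stood at 861 CPM in 4 members and at 549 CPM in 10 barcodes, on 9 and 24 UMIs.

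The label was set beside 13 patrolling and 10 classical markers. *Ace*, *Treml4* and *Cd300e* and, on the classical side, *Ly6c2* and *Ccr2* chose the 2 classes, so their order between classes was fixed by the rules. The 10 other patrolling markers were each at least 2-fold higher in patrolling than in classical monocytes in both libraries, and the 8 other classical markers each at least 2-fold lower. Summed, the 10 patrolling markers reached 8862 CPM in heterozygous patrolling and 1585 CPM in heterozygous classical monocytes, and 8475 and 1579 CPM in the wild-type library. The 8 classical markers summed to 786 CPM in heterozygous patrolling and 4447 CPM in heterozygous classical monocytes, with wild-type sums of 611 and 4265 CPM. *Itgal*, at 1223 CPM in heterozygous and 1092 CPM in wild-type patrolling monocytes, stood at 164 and 132 CPM in classical monocytes. *Ear2* stood at 687 and 577 CPM, against 63.5 and 60.9 CPM in classical monocytes. *Nr4a1*, at 1618 and 1519 CPM, was a marker with a narrow lead, since classical monocytes held 673 and 616 CPM. *Gngt2*, a G protein gamma subunit, was the most abundant of them at 1955 and 2001 CPM, against 303 and 369 CPM.

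**Figure D1:**
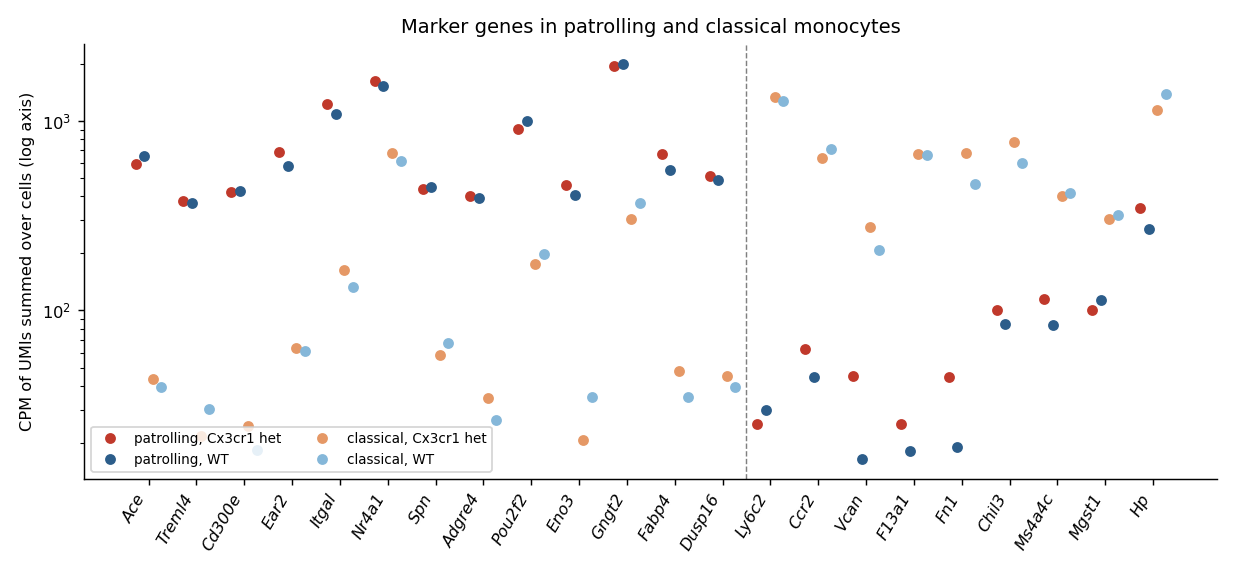
Levels of the 13 patrolling markers (left of the dashed line) and 9 of the 10 classical markers (right of it) in CPM on a log axis, 1 point per class and library, with UMIs summed over the cells of the class. Patrolling points lie above classical points for all 13 left-hand genes and below them for all 9 right-hand genes. For *Ace*, *Treml4*, *Cd300e*, *Ly6c2* and *Ccr2* the rules fixed this order.

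Summed over members, RNA of other cells was present at low levels, with single members far above the rest. A C1q UMI was found in 122 of 156 heterozygous and 228 of 322 wild-type members, and an S100a8 or S100a9 UMI in 151 of 156 and 319 of 322. The 9 neutrophil markers summed to 1009 CPM in heterozygous and 1182 CPM in wild-type members, against 347214 and 267810 CPM in neutrophil barcodes of these libraries. *S100a8*, thinned to 2000 UMIs a cell, was seen in 55.6% of heterozygous and 53.9% of wild-type members. In NK cells, which should lack it, the shares were 45.5% and 40.4% (median 7986 and 5138 UMIs before thinning). The NK rule, however, set a limit only on patrolling marker UMIs. Heterozygous NK cells also held *Trbc2* at 511 CPM and *H2-Aa* at 690 CPM, and wild-type NK cells *Mcpt8* at 922 CPM. The 5 C1q macrophage markers summed to 1085 and 837 CPM, against 48116 and 27273 CPM in C1q macrophage barcodes, and all 9 microglia markers together to 319 and 259.5 CPM, against 7296 and 6950.1 CPM there. NK cell markers summed to 2.37 and 11.7 CPM with *Ncr1*, *Klrb1c* and *Klre1* at 0 in both libraries, and T cell markers to 1.58 and 0.865 CPM with *Cd3e*, *Cd3g* and *Trbc2* at 0. Neural and choroid markers summed to 453 and 231 CPM and endothelial markers to 62.5 and 75.7 CPM, against 8.16 and 6.15 CPM for endothelial markers in classical monocytes. In single members the neural and choroid sum reached 206989 CPM among heterozygous and 1672 CPM among wild-type members, at medians of 253 and 213 CPM. Endothelial markers were at 0 in 148 of 156 heterozygous and 289 of 322 wild-type members, with highest members of 5439 and 9717 CPM. The part of such RNA in any result was not tested, and no doublet caller was run. Ly6c2 or Ccr2 UMIs were absent from 121 of 156 heterozygous and 255 of 322 wild-type members.

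Set against classical monocytes of the same library, patrolling monocytes held more RNA of 11 of 25 adhesion genes and 8 of 17 lipid genes, and less RNA of 17 of 18 cell cycle genes and of the granule proteases *Prtn3* and *Elane*. Of 5881 genes with at least 100 UMIs over both classes, 529 (9.0%) were at least 2-fold higher in both libraries and 369 (6.27%) at least 2-fold lower. Since marker RNA chose both classes, these ratios are a description.

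The 15 highest ratios, among genes outside the rule with at least 50 CPM in either class, included 3 surface proteins of adhesion and vessel traffic. *Itgax*, the integrin alpha X chain, stood at 142 CPM in heterozygous and 144 CPM in wild-type patrolling monocytes, against 6.35 and 6.77 CPM in classical monocytes, log2 ratios of 4.49 (3.42 to 5.82) and 4.41 (3.55 to 5.43). *Pecam1*, the homophilic adhesion protein CD31, stood at 176 and 191 CPM, against 14.5 and 11.1 CPM. *S1pr5*, a sphingosine-1-phosphate receptor that guides cells out of the marrow, stood at 105 and 88.7 CPM, against 7.25 and 4.31 CPM. In every one of these genes both patrolling levels lay more than 10-fold above both classical levels. The receptors *Fcgr4* (464 and 479 CPM, against 41.7 and 36.3 CPM) and *Adgre4* (401 and 390.2 CPM, against 34.5 and 26.4 CPM), whose promoters are printed above, did the same.

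Next came 2 lipid genes and an anti-apoptotic gene. *Cd36*, a scavenger receptor for fatty acids and oxidized lipoproteins, stood at 374 CPM in heterozygous and 426 CPM in wild-type patrolling monocytes, against 29.0 and 12.3 CPM in classical monocytes, and *Fabp4*, a fatty-acid carrier, at 665 and 554 CPM, against 48.1 and 35.1 CPM. *Bcl2a1d*, a Bcl-2 relative, stood at 444 and 465 CPM, against 38.1 and 38.7 CPM. Its near-identical copies *Bcl2a1b* and *Bcl2a1a* gave log2 ratios of 3.29 and 3.18 in the heterozygous and 3.51 and 3.50 in the wild-type library, and reads may be split uncertainly among the copies. The ion carrier gene *Slc12a2*, the actin regulator *Cyfip2*, the cytokine gene *Ltb*, *Ly6a*, the glycolytic enzyme gene *Eno3*, the MAP kinase phosphatase *Dusp16* and the protease inhibitor *Serpinb6a* made up the rest of the 15, with log2 ratios from 3.48 to 4.46 in the heterozygous and from 3.54 to 4.68 in the wild-type library.

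Among the 15 lowest ratios were the genes of 2 granule proteases and of dividing cells. *Prtn3*, the neutrophil-type protease proteinase 3, stood at 3.96 CPM in heterozygous and 0.865 CPM in wild-type patrolling monocytes, against 372 and 424 CPM in classical monocytes, and *Elane*, neutrophil elastase, at 2.37 and 0.865 CPM, against 86.1 and 111 CPM. Of other neutrophil granule genes, *Mmp8* was also lower in patrolling monocytes, with log2 ratios of -2.99 in the heterozygous and -4.02 in the wild-type library. *Camp*, *Ngp* and *Ltf* lay the other way at low levels. *Camp* stood at 84.7 CPM in heterozygous and 49.3 CPM in wild-type patrolling monocytes, against 40.8 and 30.1 CPM, and *Ngp* at 76.0 and 50.6 CPM, against 46.2 and 32.0 CPM. *Ccnb2*, a mitotic cyclin, stood at 3.16 and 3.03 CPM, against 123 and 122 CPM. *F13a1*, a coagulation factor subunit, stood at 25.3 and 18.2 CPM, against 671 and 659 CPM. *Dmkn* was at 0 in wild-type patrolling monocytes and at 61.5 CPM in wild-type classical monocytes. *Cdkn3*, *Nusap1*, *Tyms*, *Ube2c*, *Hist1h2ae* and *Hist1h2ap*, genes of dividing cells, the chemokine receptor *Ccr1*, *Gas7* and *AI839979* were also among the 15.

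**Figure D2:**
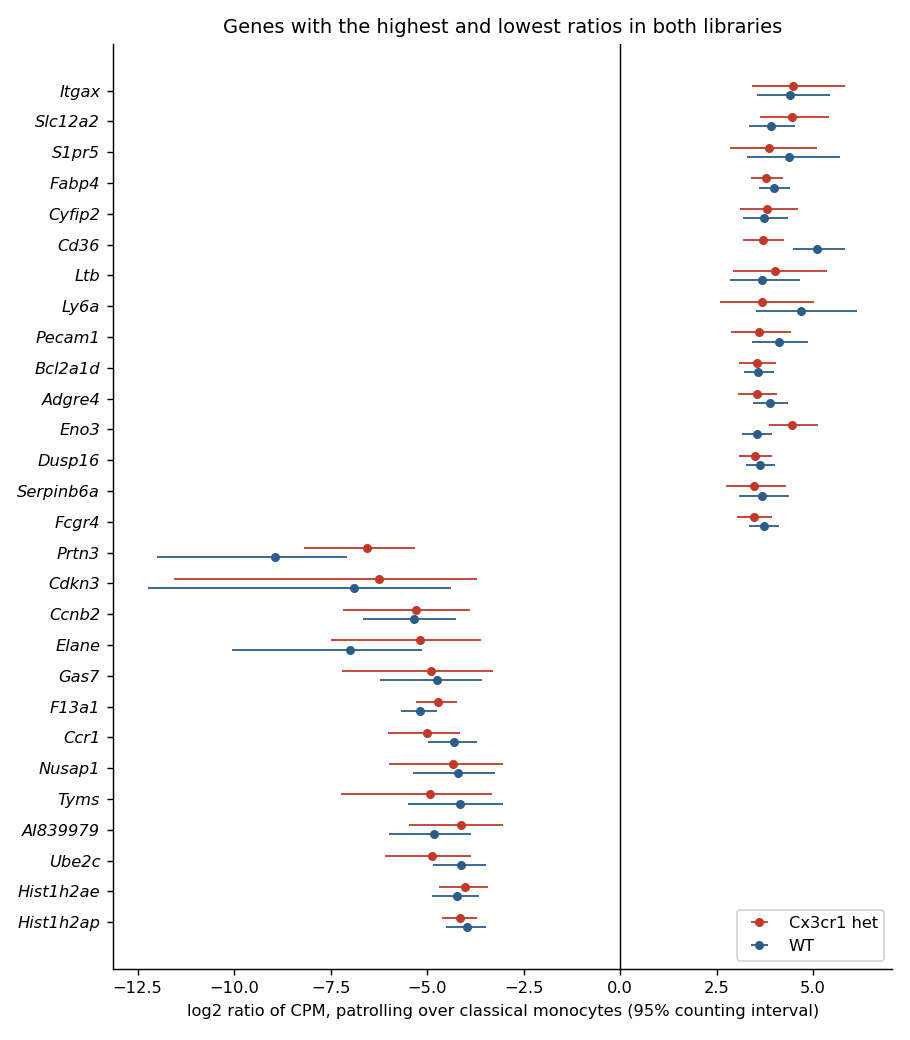
log2 ratios of CPM, patrolling over classical monocytes, for the 15 highest and 13 of the 15 lowest genes (*Dmkn*, at 0 in wild-type patrolling monocytes, and a gene not reported here are left out), with 95% counting intervals, heterozygous above wild type in each row. Upper genes lie between 3.47 and 5.11 and lower genes at -3.96 or below in both libraries.

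By gene list the same contrast split clearly. Of 20 tested patrolling monocyte genes outside the rule, 18 were 2-fold higher in both libraries, with a median log2 ratio of 2.90 in the heterozygous and 3.22 in the wild-type library, beside 0.04 and 0.03 over all 5881 genes. Of 25 adhesion and vessel crawling genes 11 were higher and 2 lower, beside 9.0% higher and 6.27% lower among all genes. *Itga4*, the alpha chain of VLA-4, stood at 876 CPM in heterozygous and 959.8 CPM in wild-type patrolling monocytes, against 240.3 and 236 CPM in classical monocytes, and *Itgb2*, the beta chain of LFA-1, at 784 and 751 CPM, against 300.1 and 296 CPM. Of 26 transcription factor genes 7 were higher and 0 lower, beside the same shares of all genes. *Tcf7l2*, a Wnt-pathway factor, stood at 296 and 306 CPM, against 32.6 and 35.1 CPM, and *Pou2f2*, the octamer-binding factor Oct-2, at 907 and 1003 CPM, against 175 and 197 CPM. *Klf2* was high in both classes, at 2036 and 2084 CPM in patrolling and 1565 and 1492 CPM in classical monocytes.

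Of 16 inhibitory and lectin receptor genes 9 were higher and 1 lower, beside 9.0% and 6.27% of all genes. Of 11 genes of the CD300 and TREM families 4 were higher and 1 lower, but *Cd300e* and *Treml4* belong to the rule, and of the 9 others 2 were higher. *Cd300ld* stood at 424 and 461 CPM, against 47.1 and 48.6 CPM, and *Lair1*, an inhibitory collagen receptor, at 424 and 482 CPM, against 61.7 and 64.0 CPM. Of 17 lipid uptake and efflux genes 8 were higher and 1 lower, and of 12 chemoattractant receptor genes 5 were higher and 4 lower. Of 15 survival and growth factor genes 5 were higher and 1 lower, with medians of 0.10 and 0.38. Of 18 cell cycle genes 0 were higher and 17 lower, with medians of -3.26 and -2.88. Immediate early and heat shock genes, which respond to cell isolation, showed 0 of 19 higher and 1 lower. The 1 lower gene was *Atf3*, at 437 and 426 CPM, against 1015 and 968 CPM.

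Between the libraries, *Cx3cr1* itself was lower in heterozygous patrolling monocytes, at 290.4 CPM (261 to 322; 367 UMIs in 119 of 156 members), against 454 CPM (427 to 482; 1049 UMIs in 270 of 322 members) in wild-type members. The ratio was 0.640 (0.567 to 0.721), a log2 ratio of -0.64 (-0.82 to -0.47). After thinning each cell to 2000 UMIs, which left out 5 heterozygous and 16 wild-type members, 37.7% of 151 heterozygous and 59.5% of 306 wild-type members had a *Cx3cr1* UMI, and the thinned log2 ratio was -0.86. Unthinned shares were 76.3% and 83.9%. In NK cells the thinned shares were 22.7% and 25.0%. A 3′ library reads the end of the transcript, and whether the changed allele still gives counted RNA is not stated in the labels used here, so this level cannot serve as a check of the genotype.

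*Cx3cr1* levels by class were highest in C1q macrophage barcodes and next highest in patrolling monocytes, in both libraries. They stood at 1106 CPM (1076 to 1136) in heterozygous and 1176 CPM (1147 to 1205) in wild-type C1q macrophage barcodes, a log2 ratio of -0.09 (-0.14 to -0.04). Classical monocytes held 90.7 CPM (73.8 to 110.3) and 100.2 CPM (85.4 to 117), a log2 ratio of -0.14 (-0.52 to 0.22). Neutrophil barcodes held 81.0 CPM and 189 CPM, a log2 ratio of -1.23 (-1.48 to -0.98), and NK cells 79.0 CPM (19 UMIs) and 197 CPM (70 UMIs), a log2 ratio of -1.32 (-2.13 to -0.57). Heterozygous classical, neutrophil and NK levels overlapped within their intervals, so their order was not resolved. In the wild-type library neutrophil and NK levels overlapped each other and lay above the classical level. The neutrophil rule set no limit on patrolling markers. *Adgre4* stood at 83.8 CPM in heterozygous and 145 CPM in wild-type neutrophil barcodes (log2 -0.79, -1.05 to -0.53). Classical monocytes held 34.5 and 26.4 CPM of it. The part of patrolling monocyte RNA in the neutrophil *Cx3cr1* level was not tested. The interval of the library difference in patrolling monocytes lay below that of C1q macrophage barcodes and above that of neutrophil barcodes, and it overlapped those of classical monocytes and NK cells. None of these differences was tested.

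**Figure D3:**
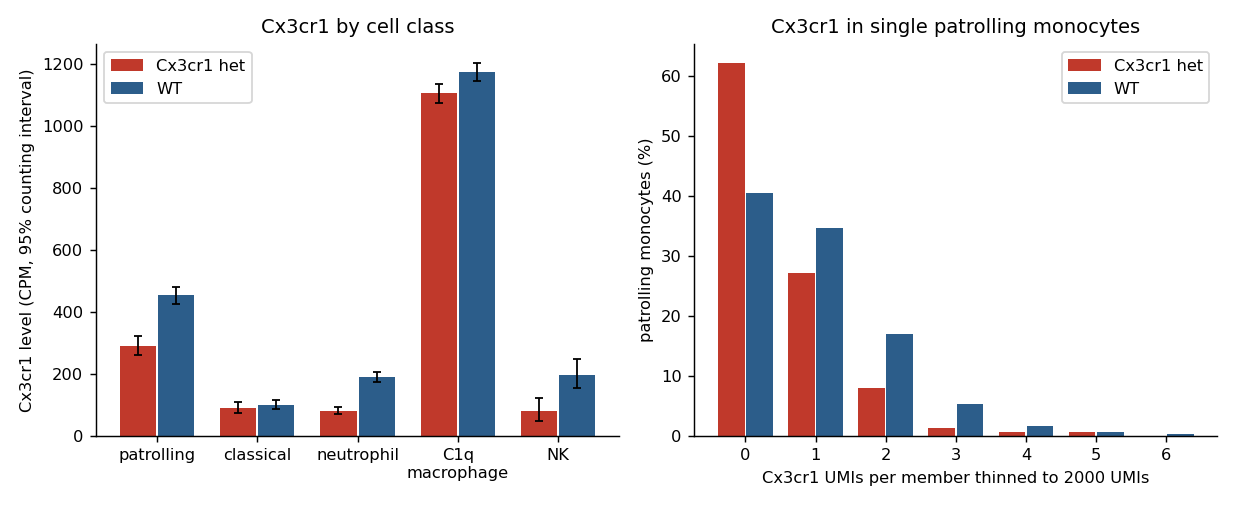
Left, *Cx3cr1* level in CPM by cell class, heterozygous left of wild type, with 95% counting intervals. Right, the percentage of patrolling monocytes with each number of *Cx3cr1* UMIs after thinning to 2000 UMIs, where 94 of 151 heterozygous and 124 of 306 wild-type members had 0.

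Of the other markers outside the rule, *Ear2* gave a log2 ratio of 0.25 (0.13 to 0.38) and *Itgal* 0.16 (0.07 to 0.26). The rule set a floor of 3 UMIs on *Ace*, *Treml4* and *Cd300e* together, so their likeness between libraries is read as a description. *Ace* stood at 594 CPM in heterozygous and 654 CPM in wild-type members, *Treml4* at 379.8 and 369 CPM and *Cd300e* at 422 and 424 CPM, with log2 ratios between -0.14 and 0.04. The 20 most abundant genes, led by *Malat1* (33934 and 33480 CPM), *Tmsb4x* and *Actb*, all lay within 1.5-fold. Of 6078 genes with at least 50 UMIs among members, 159 (2.62%) were at least 1.5-fold higher and 193 (3.18%) at least 1.5-fold lower in heterozygous members, and the median log2 ratio was 0.00. Among the 2636 genes with at least 200 UMIs, 11 (0.417%) were higher and 22 (0.835%) lower, including *Xist* and *Ddx3y*.

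Several of the highest ratios came from 1 cell. *Atp1b2*, a sodium pump subunit of glia, *Aldoc*, *Mt3* and *Sparcl1*, all genes of astrocytes, were high on the heterozygous side. A single heterozygous member of 18361 UMIs held 63 of 63 *Atp1b2* UMIs and 74 of 79 *Aldoc* UMIs. Without that member the log2 ratio was -0.11 for *Mt3*, against 3.16 with it, and -1.43 for *Sparcl1*, against 2.58. *Ttr*, the transthyretin made by choroid plexus, stood at 286 and 54.5 CPM, and 228 of its 362 heterozygous UMIs lay in 1 other member. Without the highest member of each library its log2 ratio was 1.07, against 2.39 with all, and with barcodes shared by both libraries kept it was -3.80. *Mt3* likewise gave -1.89 with those barcodes kept. *Ttr* was seen, after thinning, in 19.2% of heterozygous and 11.8% of wild-type patrolling monocytes. In NK cells, whose rule limited only patrolling marker UMIs, it was seen in 40.9% and 7.69%. The NK shares rested on 9 of 22 heterozygous (20.7% to 63.6%) and 4 of 52 wild-type cells (2.14% to 18.5%). Neutrophil barcodes gave 12.3% and 8.59%, classical monocytes 20% and 8.46% and C1q macrophage barcodes 22.2% and 11.1%. The heterozygous share of patrolling monocytes thus lay above that of neutrophil barcodes and below those of the other classes. The wild-type share lay above those of all these classes, but within the NK counting interval. The part of RNA from other cells in the *Ttr* level was not tested.

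A widely detected gene was higher in heterozygous members. *Gstp1* (chr19:4035407-4037985, minus strand), a glutathione transferase, stood at 413 CPM (522 UMIs in 126 of 156 members), against 169 CPM (391 UMIs in 160 of 322 members), a log2 ratio of 1.29 (1.10 to 1.48), and at 1.30 without the highest member of each library. *Gstp1* was also higher in heterozygous classical monocytes (0.95, 0.63 to 1.29) and neutrophil barcodes (0.59, 0.27 to 0.91), while C1q macrophage barcodes gave 0.13 (-0.14 to 0.39). In NK cells, on 28 and 15 UMIs, *Gstp1* gave 1.47 (0.51 to 2.48). It has near-identical copies among which reads may be split.

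The other named genes on that side were sparse. *Tnfsf9*, a T cell costimulatory ligand, had 56 UMIs in 10 heterozygous and 28 in 19 wild-type members, with 28 of the 56 in 1 member. *Wfdc21* had 61 UMIs in 15 members and 36 in 26. *Vcan* and *Fn1*, extracellular matrix genes of classical monocytes, had 57 and 56 UMIs in 7 and 10 heterozygous members and 38 and 44 UMIs in 16 and 24 wild-type members. Among members with no *Ly6c2* or *Ccr2* UMI the log2 ratio of *Fn1* was -1.30, against 1.22 over all members. *Id1*, *Hist1h2ap*, *Areg*, *Tmem176a* and *Tmem176b* gave log2 ratios of 1.13 to 1.19, and the *Areg* UMIs lay in 3 heterozygous and 6 wild-type members. For *Areg* the ratio turned to -2.36 among members with no *Ly6c2* or *Ccr2* UMI and to -0.48 without members above the 95th percentile of UMIs, and for *Id1* it turned to -0.58 with shared barcodes kept.

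*Apoe*, the lipid carrier apolipoprotein E, stood at 752 CPM in heterozygous and 481 CPM in wild-type members (log2 0.65, 0.52 to 0.77). In C1q macrophage barcodes, which held 30346 and 12706 CPM, *Apoe* gave a log2 ratio of 1.26 (1.24 to 1.27), and in classical monocytes -0.08 (-0.22 to 0.06). The part of RNA from those cells in the members' level was not tested.

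On the lower side lay several stress genes, and a small group of wild-type members held much of their RNA. *Gdf15* (chr8:70629393-70632456, minus strand), a stress-induced cytokine of the TGF-beta family, had 21 UMIs in 9 of 156 heterozygous members (16.6 CPM), against 196 UMIs in 41 of 322 wild-type members (84.8 CPM), a log2 ratio of -2.35 (-3.08 to -1.70). *Gclm*, a subunit of the enzyme that starts glutathione synthesis, stood at 16.6 and 41.5 CPM (-1.32, -2.08 to -0.63). *Slc7a11*, which imports cystine for glutathione, stood at 102 CPM in heterozygous and 184 CPM in wild-type members (-0.85, -1.14 to -0.56), *Prdx1*, a peroxidase, at 683 and 1052 CPM (-0.62, -0.74 to -0.51), and *Fth1*, the heavy chain of the iron store ferritin, at 5556 and 8064 CPM (-0.54, -0.58 to -0.50). Of 16 tested genes of oxidative stress, thiol and iron handling, a list drawn up after these values were seen, 5 were 1.5-fold lower and 0 higher, beside 3.18% and 2.62% of all genes, with a median log2 ratio of -0.46. Because the list followed the values, its count is a description only. *Fth1* stayed inside 1.5-fold, and *Hmox1*, heme oxygenase, did not follow (-0.04, -0.27 to 0.20).

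1 wild-type member of 19565 UMIs held 1688 *Fth1*, 435 *Prdx1*, 67 *Gdf15* and 29 *Clec4d* UMIs, the highest member for all 4 genes. Without it the log2 ratio was -0.41 for *Fth1*, -0.35 for *Prdx1*, -1.76 for *Gdf15* and -0.97 for *Clec4d*, and 3 of the 16 list genes were 1.5-fold lower, at a median of -0.38. *Slc7a11* (-0.82) and *Gclm* (-1.21) changed less.

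The 41 wild-type members with a *Gdf15* UMI held 19.2% of the UMIs of wild-type members but 44.3% of those of *Prdx1*, 46.9% of *Gclm*, 37.4% of *Slc7a11*, 37.7% of *Fth1* and 60.2% of *Cxcl1*. Their parts of *Acod1* (21.5%) and *Ptgs2* (17.4%) were close to 19.2%. Their *Fth1* levels ran from 679 to 89291 CPM with a median of 6255 CPM, against a median of 4578 CPM in the other 281 wild-type members. They were deeper (median 7738 UMIs, against 5401), which favours finding a *Gdf15* UMI. Wild-type *Cxcl1* UMIs lay in 18 members, with 34 of 93 in 1. A single member held 1688 of the 7022 *Fth1* and 435 of the 1078 *Prdx1* UMIs of the 41. Without it, summed *Fth1* in this group was 12590 CPM, against 6219 CPM in the other 281. The 9 heterozygous members with a *Gdf15* UMI showed no such surplus of *Fth1*, with a median level of 4324 CPM, against 4719 CPM in the other 147. In these 9, *Clec4d* (log2 1.06, -0.18 to 2.14), *Slc7a11* (0.34, -0.49 to 1.08) and *Prdx1* (-0.25, -0.61 to 0.08) were not resolved. Of identity genes, *Cx3cr1* (log2 -0.04, -0.27 to 0.19) and *Cd300e* (-0.15, -0.39 to 0.09) were near even between wild-type members with and without a *Gdf15* UMI, and *Itgal* was at -0.28 (-0.44 to -0.13). With all members holding a *Gdf15* UMI left out of both libraries, the log2 ratio of heterozygous over wild type was -0.14 (-0.18 to -0.09) for *Fth1*, -0.06 (-0.19 to 0.07) for *Prdx1*, -0.52 (-0.85 to -0.20) for *Slc7a11* and -0.66 (-0.85 to -0.47) for *Cx3cr1*. This grouping was chosen after the values were seen.

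**Figure D4:**
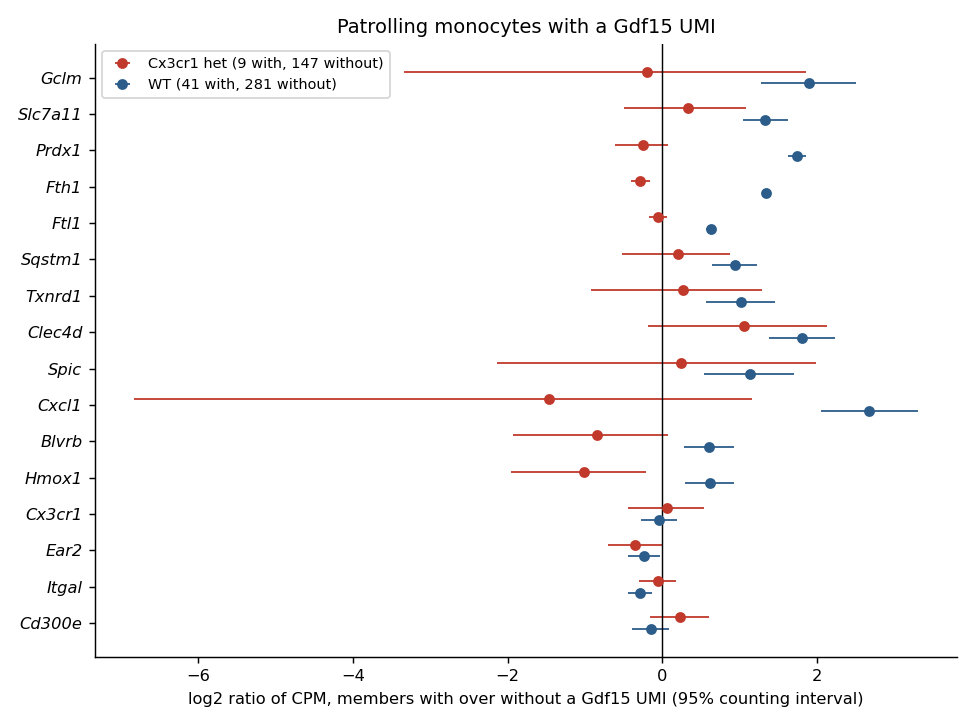
log2 ratios of CPM between members with and without a *Gdf15* UMI, within the heterozygous (9 and 147 members) and the wild-type library (41 and 281), with 95% counting intervals. Wild-type points of the upper 12 genes lie right of 0, between 0.61 and 2.67, with *Acod1* and *Ptgs2* not drawn, while the 4 identity genes at the bottom lie within 0.35 of 0 in both libraries.

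In classical monocytes *Gdf15* was also lower in the heterozygous library (9.07 CPM, against 85.5 CPM), while *Fth1* (-0.02, -0.07 to 0.03) and *Prdx1* (0.11, -0.02 to 0.23) were not. C1q macrophage barcodes gave 0.42 (0.24 to 0.61) for *Gdf15*. Neutrophil barcodes gave -1.14 (-1.64 to -0.66) for *Gdf15*, -0.85 (-1.02 to -0.68) for *Prdx1* and -0.15 (-0.18 to -0.12) for *Fth1*. The remaining named genes on the lower side were *Spic* (24 UMIs in 14 members, against 114 in 53), a factor of iron-recycling macrophages, *Acod1* (17 and 79 UMIs), which makes itaconate, *Clec4d* (45 and 189 UMIs), a C-type lectin, *Ptgs2* (32 and 121 UMIs), the prostaglandin synthase COX-2, *Cxcl1* (24 and 93 UMIs), a neutrophil attractant, *Ccnd1*, *Creld2*, *Thumpd3*, *Polr3k* and *H2-Aa*. Their log2 ratios lay between -1.38 and -1.05.

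**Figure D5:**
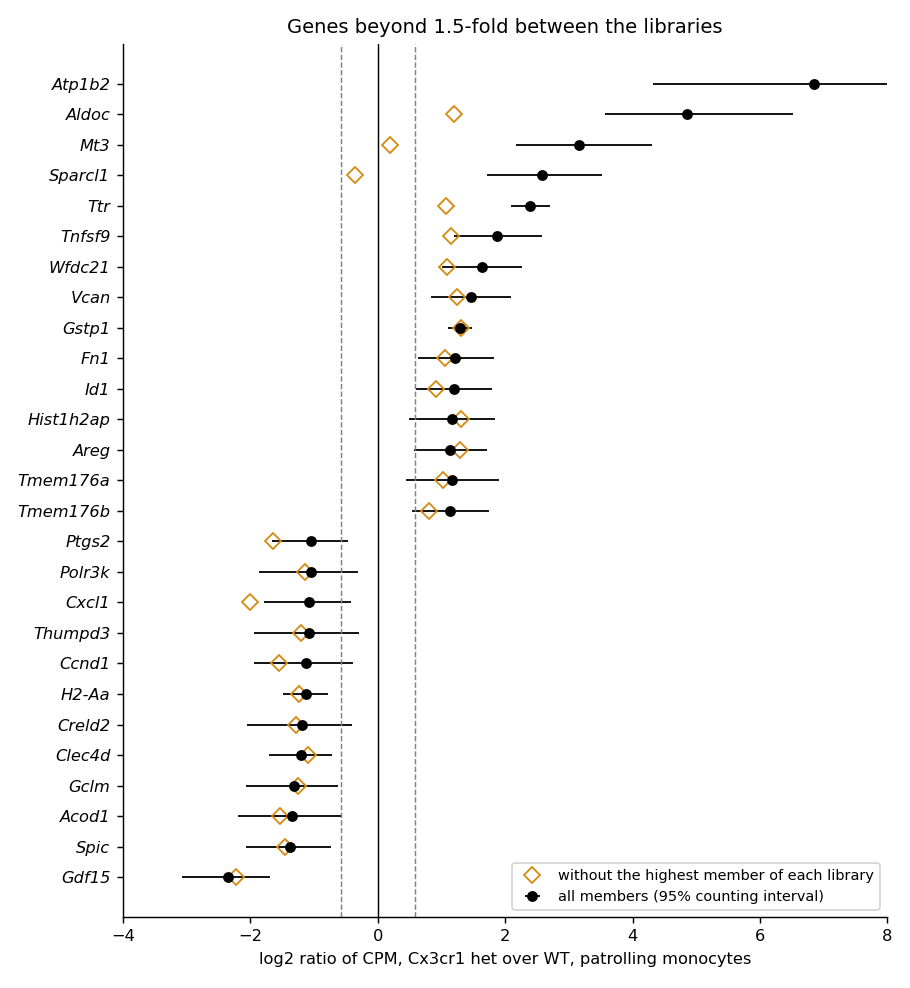
log2 ratios of CPM, heterozygous over wild type, in patrolling monocytes for genes named in the text, with 95% counting intervals (that of *Atp1b2* runs past the axis) as black points. Open diamonds are the ratios without the highest member of each library, and dashed lines mark 1.5-fold (*Atp1b2* has no diamond, since 1 member held all its heterozygous UMIs). Diamonds of *Aldoc*, *Mt3*, *Sparcl1* and *Ttr* lie far left of their points.

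Part of the class II difference between the libraries lay in 7 wild-type members. Of 6 class II genes tested, *H2-Aa*, *H2-Ab1* and *H2-Eb1* were 1.5-fold lower in heterozygous members and 0 higher, beside 3.18% and 2.62% of all genes, but these 3 are the genes whose summed level the rule capped, so the count is a description only. *H2-Aa* stood at 66.5 CPM in heterozygous and 146 CPM in wild-type members (-1.13, -1.50 to -0.78) and was detected in like shares of members, 38 of 156 (24.4%) and 80 of 322 (24.8%). *H2-Ab1* gave -0.69 (-1.09 to -0.30) and *H2-Eb1* -0.93 (-1.46 to -0.43). *Cd74*, the invariant chain that escorts class II, differed less (939.9 and 1065 CPM; -0.18, -0.28 to -0.08). Class II levels above 2000 CPM occurred in 0 heterozygous and 7 wild-type members. Without those 7, an alternative chosen after the values were seen, the log2 ratio was -0.66 (-1.04 to -0.30) for *H2-Aa*, -0.39 (-0.81 to 0.01) for *H2-Ab1*, -0.57 (-1.11 to -0.05) for *H2-Eb1* and 0.01 (-0.10 to 0.11) for *Cd74*, and of these 4 only *H2-Aa* stayed past 1.5-fold. *Gdf15* gave -1.69 without the same 7. In classical monocytes *H2-Aa* was the other way (0.58, 0.21 to 0.96), and in C1q macrophage barcodes it gave -0.45 (-0.49 to -0.41).

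Other lists fixed for this description stayed near the median of all genes between the libraries. Of 24 tested adhesion genes, 24 actin and motility genes, 14 Fc receptor and adaptor genes, 10 CD300 and TREM genes, 15 survival genes, 19 immediate early and heat shock genes, 12 complement and coagulation genes, 7 cell cycle genes and 3 ribonucleases of the eosinophil-associated family, 0 passed 1.5-fold in either direction. Among all genes 2.62% were higher and 3.18% lower, so counts in lists this short are not read as results about them. *Bcl2*, an anti-apoptotic gene, stood at 136 CPM in heterozygous and 198 CPM in wild-type members. Its log2 ratio was -0.54 (-0.80 to -0.28), just inside 1.5-fold, and its cause was not tested. *Csf1r*, the receptor for the growth factor CSF-1, was nearly even (676 and 699 CPM; -0.05, -0.17 to 0.07). Of 20 patrolling genes outside the rule 0 were higher and 1 lower, which was *Cx3cr1*. Of 14 classical genes 2 were higher (*Vcan* and *Fn1*, above) and 0 lower, with a median of 0.23.

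Further lists held 1 to 5 genes past 1.5-fold, beside 2.62% higher and 3.18% lower among all genes, and no such count is read as a result about its list. Of 26 transcription factor genes 1 was higher (*Nr4a2*, 0.91) and 1 lower (*Pparg*, the lipid-sensing receptor, at 71.2 and 109.9 CPM; -0.63, -0.99 to -0.27). Of 19 lipid genes 3 were higher (*Apoe*, *Dgat2* and *Msr1*) and 2 lower (*Pparg* and *Lpl*). Of 22 interferon-response genes 1 was higher (*Oas1a*) and 3 lower (*Ifi47*, *Ifitm1* and *Rtp4*), with a median of -0.09. Of 21 cytokine and chemokine genes 2 were lower (*Ccl5*, 8.70 and 25.1 CPM, and *Il1rn*, 12.7 and 25.1 CPM) and 0 higher. Of 9 chemoattractant receptor genes 2 were lower (*Cx3cr1* and *Fpr1*, at 24.5 and 41.5 CPM) and 0 higher. Of 16 inhibitory and lectin receptor genes 1 was higher (*Clec4a2*) and 1 lower (*Clec4n*, 260.3 and 404 CPM; -0.64, -0.82 to -0.45). Without the wild-type member with the most *Fth1* UMIs, *Clec4n* gave -0.53, inside 1.5-fold. Of 16 class I presentation genes 0 were higher and 1 lower (*H2-Q6*), of 15 damage-response genes 1 higher and 2 lower (*Apoe*, *Lpl* and *Timp2*) and of 6 surface peptidases 1 higher and 1 lower (*Adamdec1* and *Dpp4*).

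Spread among members was described by the variance over the mean. After thinning to 2000 UMIs, the median gene with a mean of at least 0.1 UMI had a variance 1.06 times its mean among heterozygous and 1.07 times among wild-type members, close to counting error. The highest ratio among heterozygous members was that of *Malat1*, a nuclear non-coding RNA, at 19.6, against 18.0 among wild-type members. *Cxcl2*, a neutrophil-attracting chemokine, reached 14.2 and 13.1 times. It ran from 0 to 52 UMIs with a median of 2 in heterozygous members, and from 0 to 73 with a median of 2 in wild-type members, and 61 of 151 and 91 of 306 had 0. *Ccl4* and *Ccl3*, chemokines for lymphocytes and monocytes, had ratios of 8.01 and 4.50 in heterozygous and 6.61 and 4.14 in wild-type members. *Fth1* stood at 11.4 and 27.8 times, with a median of 10 UMIs in both libraries and a highest member of 72 UMIs in the heterozygous and 192 UMIs in the wild-type library. *Ftl1*, *Cd74*, *Tmsb10*, *Actb* and *Lyz2* made up the 10 genes named. No list was tested for its spread.

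Members with 10 or more thinned *Cxcl2* UMIs numbered 26 of 151 in the heterozygous and 63 of 306 in the wild-type library, a limit chosen after the values were seen. In the heterozygous library they held a mean of 2.77 *Il1b* UMIs, against 1.09 in the other members, and in the wild-type library 2.10, against 1.11. *Ccl3* had means of 2.12 and 0.744 in the heterozygous and 2.03 and 0.704 in the wild-type library. Members high in *Cxcl2* thus also held more *Ccl3* and *Il1b* in both libraries.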

How the data were processed

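The authors' deposited files hold raw UMI counts per gene and cell barcode, not normalized, from 10x Genomics Chromium 3′ (v3.1) libraries, per the labels' protocols. Cell Ranger 4.0 and the mm10 genome are named per the submitters' processing notes, while the matrices name version 5.0.0 per the file headers, and which of them made the counts was not settled. Barcode and feature lists were used as deposited.

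UMIs were summed over the cells of a class in each library and divided by the UMI total (CPM). Ratios carry exact conditional binomial intervals, CPM exact Poisson intervals and shares Clopper-Pearson intervals at 95%, all for counting error only. UMIs are molecules, but cells of 1 library are not replicates, so no test was run. Neutrophil barcodes had 20000 CPM or more of S100a8 and S100a9 with C1q genes under 2000 CPM, C1q macrophage barcodes the reverse, and NK cells at least 20 UMIs of Gzma and Nkg7 with fewer than 3 marker UMIs. Cells were thinned to 2000 UMIs (seed 1). Named genes were the markers, the 20 most abundant, the 12 highest and 12 lowest ratios between libraries beyond 1.5-fold (at least 50 UMIs and 20 CPM), the 15 highest and 15 lowest between classes (rule genes left out, at least 50 CPM in either class), the 10 with the highest variance over mean and up to 4 of each list, predicted, ribosomal, mitochondrial and sex-marker genes aside. Removing the heterozygous member that held all Atp1b2 UMIs opened further places in that ranking, which are also named. The members and gene lists were chosen with earlier results of these data known, and genes named outside the rule, as well as the list of oxidative stress genes, were chosen after their values were seen. The interval code was tested on simulated data. Tools were Python 3.11.15, numpy 2.4.6, scipy 1.17.1, pandas 2.3.3 and edgeR 4.0.16 (TMM) in R 4.3.3. GENCODE M21 held the identifiers of 32235 of 32285 genes. Alternatives are given in the closing section. Some genes that met the rule are not reported here.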

Additional observations from a re-analysis of the deposited data

Results flagged for a closer look

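In 7 genes the heterozygous and wild-type libraries differed in opposite directions in patrolling and classical monocytes, with both ratios beyond 1.5-fold, at least 50 UMIs in each class and both 95% counting intervals away from a ratio of 1. The difference between the classes was not tested. *Ptgs2* gave a log2 ratio of -1.05 in patrolling and 0.97 in classical monocytes, *Cxcl1* -1.08 and 1.49, *Clec4n* -0.64 and 0.89 and *Fbxo33* -0.91 and 0.87. The wild-type patrolling member with the most *Fth1* UMIs held 72 of 935 *Clec4n* UMIs. Without it the patrolling ratio of *Clec4n* was -0.53, inside 1.5-fold. Patrolling *Cxcl1* UMIs lay in 5 heterozygous and 18 wild-type members, with 16 of 24 and 34 of 93 in 1 member each. *Id1* gave 1.19 in patrolling and -1.29 in classical monocytes, *Naa20* 0.79 and -0.61 and *Tvp23b* 0.82 and -1.18. Of 5067 genes with at least 50 UMIs in both classes, 201 passed 1.5-fold in patrolling monocytes, 40 in both classes, and 27 of those 40 in the same direction.

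Barcodes listed in both libraries, which were left out, included 2 in the heterozygous and 3 in the wild-type library that met the marker rule. The 2 had a median of 3955 UMIs, and 2726 under the same barcodes in the wild-type library. The 3 had a median of 76034 UMIs, and 1181 under the same barcodes in the heterozygous library, and none of the 5 met the rule in the other library.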

How the results depend on the processing

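The share of patrolling monocytes among kept cells moved with the cell filter. It was 10.5% in the heterozygous and 16.1% in the wild-type library without a filter, and 14.9% and 20.6% with a stricter filter (1000 genes, 5% mitochondrial UMIs). It was 10.6% in the heterozygous library with shared barcodes kept and 14.6% in the wild-type library with at least 5 marker UMIs. The heterozygous share was the lower of the pair under all 5 alternatives. Counts of genes at least 1.5-fold higher and lower in heterozygous members, 159 and 193, were 259 and 340 with equal weight per cell, 672 and 785 after thinning to 2000 UMIs, 302 and 325 among members with no Ly6c2 or Ccr2 UMI, 92 and 111 when the interval also had to exclude a ratio of 1, 837 and 839 with a minimum of 10 UMIs and 11 and 22 with 200. Alternatives with fewer UMIs or a lower minimum admit genes with wide counting intervals. Between classes the counts, 529 and 369, were 985 and 964 with a minimum of 10 UMIs, and the lower count was 234 with 200. The log2 ratio of Cx3cr1 was -0.86 after thinning and lay between -0.69 and -0.52 under the other alternatives. Ratios that changed sign were -1.89 for Mt3, -3.80 for Ttr and -0.58 for Id1 with shared barcodes kept, 0.019 for Thumpd3 after thinning, -1.30 for Fn1 and -2.36 for Areg among members with no Ly6c2 or Ccr2 UMI, -0.48 for Areg without members above the 95th percentile of UMIs, -0.11 for Mt3 and -1.43 for Sparcl1 without the member that held all heterozygous Atp1b2 UMIs, and -0.35 for Sparcl1 without the highest member of each library. The cause was not tested. Of the other values of named genes, 56 moved beyond their counting interval and 458 did not, and of gene list medians 1 moved and 312 did not. The alternatives without single members, without members over 2000 CPM of class II genes and with the interval were chosen after seeing the data. Members with no C1q, S100a8 or S100a9 UMI numbered 2 in the heterozygous and 1 in the wild-type library, so that alternative was not run. Scaling by TMM or median of ratios moved the median of all genes to -0.04 and -0.02. No paired analysis was possible because each genotype has 1 library. Depth limits sparse genes. For Thumpd3, with 17 and 66 UMIs, the counting interval of the log2 ratio ran from -1.95 to -0.30.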
